A study of Rattus norvegicus with 72 samples.

Results

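Nifedipine is a dihydropyridine that blocks L-type calcium channels and is given for high blood pressure and angina. In this series it was 1 of the compounds labelled as not carcinogenic, tested beside liver carcinogens on primary rat hepatocytes, and the exposure described here lasted 24 h. The 6 arrays were chosen by their titles: 3 of cells exposed to 156 µM nifedipine and 3 of the control that the titles assign to 2-nitrofluorene, piperonyl butoxide and nifedipine together, out of 72 arrays in the series. All 31042 probe sets that are not Affymetrix controls were taken, of 31099 in the table.

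The hepatocytes were isolated by collagenase perfusion and kept as a monolayer, and after attachment the serum was withdrawn and hydrocortisone and insulin were added to the medium of treated and control cells alike. The labels name neither strain, sex and age of the rats nor the vehicle of the control. Each array carries a D number, here D7, D8 or D9, which the labels leave unexplained. Per the protocol each compound was run in 3 separate biological experiments. The p-values rest on the spread within groups over 36 arrays of D7 to D9, which include other compounds and 72 h. Arrays with the same D number and exposure time deviated together, so treated and control arrays were compared within D numbers.

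Hepatocytes meet foreign compounds with a small set of transcription factors. The aryl hydrocarbon receptor (AhR) drives Cyp1 genes, PXR and CAR drive Cyp3a and Cyp2b genes, PPARα drives fatty acid oxidation, and NRF2, released from KEAP1 by electrophiles and oxidants, drives the genes that make and use glutathione. FXR, encoded by Nr1h4, senses bile acids and holds back their synthesis, and SREBP-1c, encoded by Srebf1, drives fatty acid synthesis under insulin. Rat hepatocytes in culture are also known to lose part of their liver-specific P450 expression, which makes a control of the same time essential.

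The 6 arrays were alike in overall brightness, with median signals of 19.55 to 20.78 MAS5 units, and the log2 ratio of the 3′ to the 5′ actin probe sets lay between 0.73 and 1.11. Of the defining hepatocyte markers 11 were measured, and their summed signal was 43700 to 56900 on the control arrays and 38300 to 47200 on the nifedipine arrays, so the label was borne out in both groups. In bulk RNA, fewer cells of a type and less RNA per cell cannot be told apart. Some markers of other liver cells also had signal, and the sums below cover only those. Dim in every group were 6 of 17 endothelial markers, among them Stab1, Stab2 and Vwf. The same held for 4 of 14 bile duct markers, among them Krt19, for 5 of 18 stellate cell markers and for 1 of 20 macrophage markers. The summed signal of 17 macrophage markers was 1550 to 2650 in controls and 1340 to 2290 with nifedipine, that of 13 stellate cell markers was 1870 to 2870 and 1660 to 2080, that of 9 endothelial markers was 365 to 519 and 364 to 457, and that of 7 bile duct markers was 508 to 598 and 524 to 659.

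After 24 h of nifedipine, glutathione and antioxidant genes rose together with Cyp1a1. A group of genes known to be induced by low oxygen, listed only after the values had been seen, also rose. Genes of bile acid synthesis, constitutive P450 genes, the lipogenic regulator Srebf1 and several liver enzymes fell. In all, 1365 of 10178 genes tested (13.4%) passed an adjusted p of 0.05 in limma. Of these, 499 rose (4.9% of genes tested) and 866 fell (8.51%). The changes were mostly modest. The median size among the called genes was 0.58 on the log2 scale, and 69 genes rose and 168 fell by more than 2-fold. The median change over all genes was −0.031. At the level of probe sets, 2090 of 18048 were called (11.6%), 848 higher (4.7%) and 1242 lower (6.88%), and 4547 had an unadjusted p under 0.05.

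The number of calls depended on the pairing by D number. Without the D number as a block, 623 probe sets were called (271 higher and 352 lower), all of them among the 2090. The count was also lower when single arrays were left out: 1293 without the D7 nifedipine array, 1289 without the D8 nifedipine array, 1161 without the D7 pair and 1114 without the D8 pair. Unless another adjusted p is given beside it, each gene said below to have risen or fallen at 24 h also passed the test without the block. As a comparison of untreated cells, the 3 control arrays were set against the 3 control arrays of the tobacco nitrosamine NNK with the same D numbers, and 39 probe sets (0.216%) were called, none of them without the block, beside 2011 at an unadjusted p under 0.05.

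**Figure D1:**
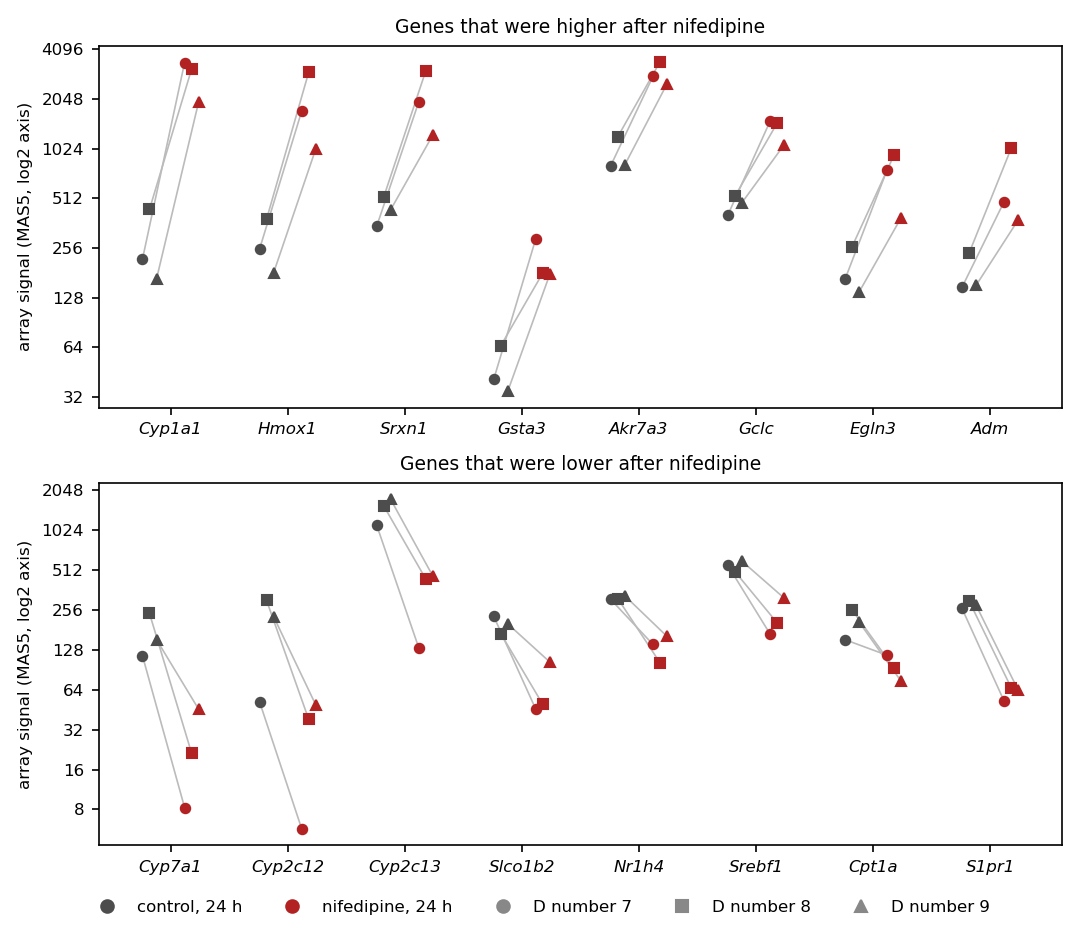
MAS5 signal of each array on a log2 axis for 8 genes that rose (upper panel) and 8 that fell (lower panel) after 24 h of nifedipine. For each gene control is on the left and nifedipine on the right. Symbols mark the D number and lines join arrays of the same D number. Hmox1 went from 181 to 383 in controls to 1020 to 2980 with nifedipine, and for each of the 16 genes all 3 lines ran the same way.

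The NRF2 targets moved together. Of 24 measured members, 18 rose and none fell, beside 4.9% and 8.51% of all genes, and all 24 had a positive change, with a median of 0.99 on the log2 scale. The members that rose cover the synthesis, use and recycling of glutathione, thioredoxin recycling, quinone and aldehyde reduction and heme breakdown. The count was 12 without the D number block and 15 to 17 in the runs that each left out an array or a pair. With the spread taken over all 72 arrays it was 10 with the block and 6 without it. Of 29 genes on the list, 1 was dim in every group and 4 had no probe set of their own symbol alone.

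NRF2 binds the antioxidant response element, whose core was searched here as TGACNNNGC on both strands of the RefSeq promoters (GRCr8, from 250 bases before to 50 after the gene start). Of the 18 NRF2 targets that rose, 15 had a promoter in the table and 5 of those held the core, against 0 of 6 members that were not called and 12.1% of all 33469 promoters. The 200 bases before the start of these 5 genes follow, 5′ to 3′ on the gene's strand, because they place the core letters (in capitals) at very different distances from the start. Gclm lies at chr2:213031935-213032134 on the plus strand, Me1 at chr8:96540245-96540444 on the minus strand, Gpx2 at chr6:101230034-101230233 on the minus strand, Gstp1 at chr1:210769706-210769905 on the minus strand and Gsta3 at chr9:31154789-31154988 on the plus strand.
Gclm: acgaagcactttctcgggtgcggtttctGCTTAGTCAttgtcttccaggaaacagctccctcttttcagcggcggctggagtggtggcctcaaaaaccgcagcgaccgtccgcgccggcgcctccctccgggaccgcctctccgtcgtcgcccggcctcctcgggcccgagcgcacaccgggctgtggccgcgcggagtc
Me1: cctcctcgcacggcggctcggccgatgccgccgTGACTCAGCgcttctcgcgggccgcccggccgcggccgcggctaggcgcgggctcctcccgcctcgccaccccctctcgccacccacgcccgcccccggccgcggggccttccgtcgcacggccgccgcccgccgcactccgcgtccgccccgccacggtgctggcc
Gpx2: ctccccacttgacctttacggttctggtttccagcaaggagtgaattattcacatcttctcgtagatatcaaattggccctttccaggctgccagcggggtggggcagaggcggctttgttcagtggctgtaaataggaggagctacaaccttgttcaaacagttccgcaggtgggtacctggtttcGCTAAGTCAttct
Gstp1: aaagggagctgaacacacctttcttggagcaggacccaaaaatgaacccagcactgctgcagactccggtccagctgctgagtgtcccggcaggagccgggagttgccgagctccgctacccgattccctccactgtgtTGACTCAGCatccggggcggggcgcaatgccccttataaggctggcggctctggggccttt
Gsta3: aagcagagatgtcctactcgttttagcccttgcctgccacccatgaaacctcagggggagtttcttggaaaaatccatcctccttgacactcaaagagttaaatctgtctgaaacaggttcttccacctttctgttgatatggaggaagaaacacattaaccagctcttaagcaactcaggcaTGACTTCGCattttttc
The match began 172 bases before the start in Gclm, 167 in Me1, 61 in Gstp1, 17 in Gsta3 and 13 in Gpx2. In Me1 and Gstp1 the letters read TGACTCAGC, which also contain TGACTCA, the site of AP-1. A match of letters is a description and not a measured binding site, and a promoter without a match says nothing of enhancers farther away.

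Hmox1, the heme oxygenase that degrades heme to biliverdin, had the smallest adjusted p of the list. Its signals were 252, 383 and 181 on the D7, D8 and D9 control arrays and 1730, 2980 and 1020 on the matching nifedipine arrays. The groups did not overlap, which held for 2004 of all genes (19.7%). The change was 2.74 ± 0.19 (SE of the model, with 3 arrays a group) on the log2 scale, or 6.69-fold, with an adjusted p of 1.56e-10 in limma.

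Srxn1, sulfiredoxin, which repairs over-oxidised peroxiredoxins, read 346, 520 and 437 in controls and 1970, 3040 and 1240 with nifedipine. Each nifedipine array was above each control array, and the change was 2.19 ± 0.21, 4.56-fold (limma adjusted p = 8.87e-08). Txnrd1, thioredoxin reductase, went from 400, 479 and 394 to 1120, 1210 and 764, a change of 1.26 ± 0.14 (limma adjusted p = 5.48e-07). Gsr, which reduces oxidised glutathione, stood at 456 to 477 in controls and at 964 to 1080 with nifedipine, a change of 1.16 ± 0.12 (limma adjusted p = 3.4e-07).

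Both subunits of glutamate-cysteine ligase, the rate-limiting enzyme of glutathione synthesis, rose. The catalytic subunit Gclc read 406, 527 and 482 in controls and 1500, 1460 and 1080 with nifedipine, a change of 1.5 ± 0.12, 2.84-fold (limma adjusted p = 1.58e-09). The modifier subunit Gclm, whose promoter core is shown above, read 621, 670 and 499 and then 1140, 1460 and 1010, a change of 1.01 ± 0.10, 2.01-fold (limma adjusted p = 2.41e-07). Neither subunit's groups overlapped.

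Glutathione transferases, which join glutathione to electrophiles, also moved. Gsta3, an alpha class transferase, read 40.9, 65.3 and 34.6 in controls and 292, 181 and 178 with nifedipine. It rose by 2.22 ± 0.29, 4.67-fold (limma adjusted p = 4.62e-06), with no overlap. Gstp1, the placental form that is nearly silent in normal rat hepatocytes, read 241, 171 and 224 and then 546, 489 and 621. Its change was 1.39 ± 0.19 with an adjusted p of 1.05e-05 in limma, and 0.0579 without the D number block.

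Over the whole glutathione transferase list, 7 of 21 measured members rose and 2 fell (42.9% called, beside 13.4% of all genes), with a median of 0.13. Without the block 2 rose and 1 fell, and without the D8 or the D9 pair 1 fell. Gsta4, which detoxifies lipid peroxidation products, went from 1100 to 1190 in controls to 1850 to 2440, and Mgst3, a membrane-bound transferase, fell from 1230 to 1490 to 637 to 883, by 0.78 on the log2 scale. Near-identical glutathione transferase transcripts can share probes, so single members of this family are uncertain.

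The reductases followed. Akr7a3, the aflatoxin aldehyde reductase, read 809, 1210 and 818 in controls and 2810, 3440 and 2530 with nifedipine, a rise of 1.64 ± 0.16, 3.13-fold (limma adjusted p = 7.84e-08). Nqo1, the quinone reductase, read 357, 616 and 561 and then 1620, 1350 and 1150, a rise of 1.45 ± 0.19, 2.73-fold (limma adjusted p = 5.04e-06). Me1, malic enzyme, which supplies NADPH, read 165, 154 and 107 and then 314, 303 and 239, a rise of 1.02 ± 0.10 (limma adjusted p = 4.89e-08). In none of the 3 did a nifedipine array lie within the control range.

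Gpx2 shows what the block by D number does. Its signals were 346, 118 and 52.5 in controls and 454, 178 and 69.2 with nifedipine, so the groups overlapped widely although every pair moved up. The change of 0.46 ± 0.11 had an adjusted p of 0.00484 in limma with the block and 0.833 without it. Akr1b8, Abcc3, Cbr1 and Pgd also passed with the block alone, at adjusted p values of 0.294, 0.237, 0.327 and 0.384 without it. The 6 members that were not called included Slc7a11, the cystine importer, with a change of 0.97 (limma adjusted p = 0.0717) and Tkt, transketolase, with 0.33 (0.0879). Txn1, thioredoxin itself, stood at 4370 to 4670 in controls and at 4450 to 5060 with nifedipine, a change of 0.04.

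**Figure D2:**
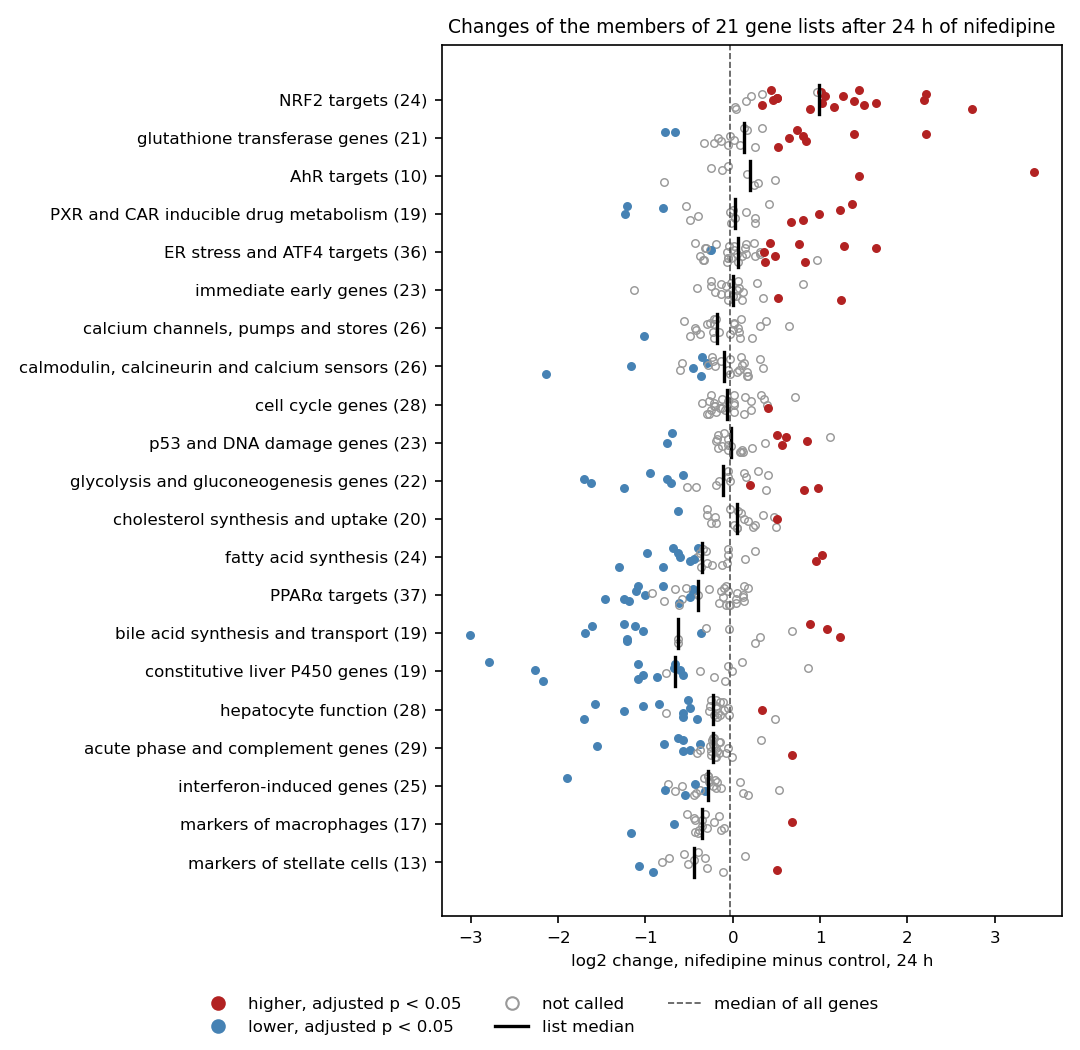
Change after 24 h of nifedipine (log2, nifedipine minus control) of each measured member of 21 gene lists, 1 point per gene, with the median of each list as a bar and the median of all genes, −0.031, as a dashed line. The NRF2 targets lie wholly above 0 with a median of 0.99, and the constitutive P450 genes and bile acid genes have the lowest medians, −0.66 and −0.63.

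Cyp1a1, the sentinel AhR gene that oxidises polycyclic aromatic compounds, had the largest rise of all genes named. It read 219, 439 and 166 in controls and 3410, 3120 and 1970 with nifedipine, with no overlap. The change was 3.45 ± 0.32, 10.9-fold (limma adjusted p = 4.39e-08). The rest of the AhR list did not follow: 2 of 10 measured members rose, Cyp1a1 and Nqo1, none fell, and the median change was 0.20. The share called was 20%, beside 13.4% of all genes.

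Cyp1a2, the constitutive hepatic member, read 260, 624 and 218 in controls and 294, 902 and 365 with nifedipine. The groups overlapped, and the change of 0.48 ± 0.63 had an adjusted p of 0.691 in limma. Cyp1b1 was dim in both groups, at 8.01 to 18.2 and 7.78 to 19.5. Tiparp, which feeds back on the receptor, had a change of 0.29 (limma adjusted p = 0.16). Nqo1 belongs to both the AhR and the NRF2 list.

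The PXR and CAR list gave 5 rises and 3 falls of 19 measured members (42.1% called, beside 13.4% of all genes), with a median of 0.03. Without the D number block there were 2 rises and no fall. Cyp3a23-3a1, the main PXR-inducible P450 of rat liver, was bright and level. It read 7390, 7260 and 6450 in controls and 6680, 7860 and 6570 with nifedipine, a change of −0.0012 ± 0.11 (limma adjusted p = 0.997). Cyp3a2 read 416, 441 and 755 and then 455, 318 and 926, a change of −0.02 ± 0.26 (0.979). Probes of the Cyp3a family can share transcripts, so the members are not fully separable.

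Abcc2, the canalicular pump for glutathione and glucuronide conjugates, read 1300, 953 and 1290 in controls and 3080, 2640 and 2530 with nifedipine, a rise of 1.23 ± 0.16, 2.34-fold (limma adjusted p = 5e-06). Ugt2b1, a glucuronosyltransferase, went from 1820, 3100 and 3070 to 4830, 5600 and 5000, a rise of 0.99 ± 0.18 (limma adjusted p = 0.000319). Por, the electron donor of all microsomal P450 enzymes, went from 930 to 1470 to 1900 to 2070, with adjusted p values of 2.81e-05 with the block and 0.0771 without it. None of the 3 had overlapping groups.

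Ugdh, which makes the UDP-glucuronic acid that glucuronosyltransferases need, read 823, 1280 and 1010 in controls and 2290, 2820 and 2320 with nifedipine. Its rise of 1.27 ± 0.09 (limma adjusted p = 3.32e-10) was seen without overlap of the groups. Ugp2, a step earlier on the same path, rose from 1490 to 1970 to 2340 to 4770. The glucuronosyl- and sulfotransferase list as a whole gave 4 rises and 3 falls of 17 (41.2% called, beside 13.4% of all genes), with a median of −0.01. None of the falls passed without the block, and none passed without the D7 pair, while 1 passed without the D7 nifedipine array.

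Genes known to be induced by low oxygen formed a further group. This list was added after the values had been seen, because several of its genes were among the largest rises, so its count describes the choice as much as the cells. Of 27 measured members 17 rose and none fell (63% called, beside 13.4% of all genes), with a median of 0.70. Without the D number block 13 rose, and 9 of the 27 also belong to another list. The members span oxygen sensing, glucose transport, mitochondrial clearance and vascular signalling.

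Egln3, a prolyl hydroxylase that marks HIF subunits for degradation, read 165, 260 and 138 in controls and 762, 940 and 391 with nifedipine. The groups did not overlap, and the rise was 1.86 ± 0.19, 3.62-fold (limma adjusted p = 1.31e-07). Adm, the vasodilator peptide adrenomedullin, read 148, 238 and 152 and then 490, 1030 and 379, a rise of 1.72 ± 0.18 (limma adjusted p = 2.32e-07). Ero1a, an oxidase of the endoplasmic reticulum, read 145, 206 and 167 and then 445, 1010 and 390, a rise of 1.71 ± 0.17 (limma adjusted p = 1.26e-07). In all 3 genes the D8 arrays were the highest of both groups.

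Smaller rises were seen for Slc2a1, the glucose transporter GLUT1, by 0.98 (limma adjusted p = 4.08e-06) and Vegfa, the vascular growth factor, by 0.91 (4.94e-06). Bnip3 and Bnip3l, receptors for the removal of mitochondria, rose by 0.94 and 0.82, and the glycolytic enzyme Aldoa rose by 0.82. Ddit4, an inhibitor of mTOR signalling, read 128, 211 and 143 in controls and 370, 604 and 244 with nifedipine, a rise of 1.28 ± 0.18 (limma adjusted p = 1.74e-05). Letters ACGTG, the core of the hypoxia response element, were found on either strand in 9 of 14 promoters of the members that rose and in 5 of 8 of those not called, against 19.3% of all promoters.

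Cyp7a1, the rate-limiting enzyme of bile acid synthesis, had the largest fall of the genes named here. It read 115, 240 and 152 in controls and 8.27, 21.2 and 45.5 with nifedipine. All nifedipine arrays lay below all control arrays, though their own values spread widely, and the fall was 3.01 ± 0.49 on the log2 scale, 8.06-fold (limma adjusted p = 0.000113). The bile acid list had 19 measured members, of which 9 fell and 3 rose (63.2% called, beside 13.4% of all genes), with a median of −0.63. Without the D number block 5 fell and 2 rose.

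The falls covered conjugation and uptake. Baat, which joins bile acids to taurine or glycine, read 2100, 2100 and 2230 in controls and 955, 645 and 1280 with nifedipine, and fell by 1.21 ± 0.13 (limma adjusted p = 3.4e-07). Slco1b2, a basolateral uptake carrier, read 228, 169 and 200 and then 45.4, 49.4 and 103, and fell by 1.69 ± 0.20 (limma adjusted p = 1.47e-06). Slc10a1, the sodium-dependent bile acid importer NTCP, went from 462 to 653 to 178 to 389, with an adjusted p of 0.000239 with the block and 0.221 without it. The groups of each of the 3 genes were separate.

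Nr1h4, the bile acid receptor FXR, read 305, 310 and 325 in controls and 140, 102 and 161 with nifedipine, and fell by 1.25 ± 0.13 (limma adjusted p = 1.72e-07). On the export side the direction was the opposite. Abcb4, the phospholipid flippase of the canaliculus, read 173, 174 and 178 and then 502, 316 and 321, and rose by 1.08 ± 0.16 (limma adjusted p = 4.65e-05), as did Abcc2. Abcb11, the bile salt export pump, had a change of 0.26 with an adjusted p of 0.177. Akr1d1, a reductase of the synthesis path, went from 316 to 940 to 107 to 218, but its adjusted p of 0.0121 was lost without either the D7 or the D8 nifedipine array and without the D8 control array.

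Among the constitutive liver P450 genes 11 of 19 measured members fell and none rose (57.9% called, beside 13.4% of all genes), with a median of −0.66. Without the D number block 5 fell. The steepest falls were in the Cyp2c subfamily, whose members oxidise steroids with sex-dependent expression in rat liver. Cyp2c12 read 51.8, 300 and 227 in controls and 5.73, 38.2 and 49.1 with nifedipine. The D7 control array was low, close to the highest nifedipine value, yet each pair moved down and the fall was 2.79 ± 0.32, 6.90-fold (limma adjusted p = 7.24e-07).

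Cyp2c13 read 1110, 1550 and 1730 in controls and 132, 435 and 458 with nifedipine, and fell by 2.27 ± 0.32, 4.83-fold (limma adjusted p = 1.77e-05). Cyp17a1, a steroid hydroxylase, read 44.9, 37.5 and 59.6 and then 3.58, 11.5 and 26.7, and fell by 2.17 ± 0.43 (limma adjusted p = 0.000985). Cyp2c11, the male-specific form, went from 392 to 910 to 113 to 503. Its groups overlapped, and its adjusted p was 0.0102 with the block and 0.503 without it, and it was not called without either D7 array. The Cyp2c transcripts are closely alike, so these values may hold signal of neighbours in the family.

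Genes of a wider hepatocyte function list fell as well. Of its 28 measured members 10 fell and 1 rose (39.3% called, beside 13.4% of all genes), with a median of −0.23. Since 16 of the 28 also belong to another list, this count is not separate from the others. Without the D number block 4 fell, without the D7 nifedipine array 6 and without the D7 pair 5. Otc, the urea cycle enzyme, read 638, 707 and 759 in controls and 213, 247 and 241 with nifedipine, and fell by 1.58 ± 0.23, 3-fold (limma adjusted p = 3.04e-05). Cebpa, a transcription factor of the differentiated hepatocyte, went from 413 to 532 to 231 to 320 and fell by 0.84 (limma adjusted p = 4.09e-06). Alb, albumin, stood at 5530 to 10400 in controls and at 5030 to 8490 with nifedipine, with an adjusted p of 0.722.

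The lipogenic genes fell in part. Srebf1 read 550, 495 and 593 in controls and 168, 204 and 313 with nifedipine, and fell by 1.30 ± 0.14, 2.47-fold (limma adjusted p = 3.49e-07), with no overlap. Fasn, fatty acid synthase, read 548, 340 and 607 and then 282, 180 and 289, and fell by 0.98 ± 0.15 (limma adjusted p = 4.42e-05). Of 24 measured genes of fatty acid synthesis 9 fell and 2 rose (45.8% called, beside 13.4% of all genes), with a median of −0.35. The falls numbered 3 without the D number block, and 5 without the D9 control array or without any of the 3 pairs. Of the rises 1 was left without the D7 nifedipine array or without the D7 or D8 pair.

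The genes of the list did not all move down. Me1 rose, as given above. Scd, the stearoyl-CoA desaturase, read 4630, 3100 and 3430 in controls and 3000, 3730 and 3460 with nifedipine, with an adjusted p of 0.814. Outside this list, Pklr, the liver pyruvate kinase, read 213, 243 and 277 and then 53.7, 74.6 and 104, and fell by 1.70 ± 0.28 (limma adjusted p = 0.000105). Also outside it, Slc2a5, the fructose transporter GLUT5, read 67.4, 97.9 and 61.1 and then 18.3, 18.5 and 21.6. It fell by 1.93 ± 0.23 (limma adjusted p = 1.34e-06). Glycolysis and gluconeogenesis genes, a list without Slc2a5, gave 7 falls and 3 rises of 22 (45.5% called, beside 13.4% of all genes). Without the block there were 3 falls and 2 rises, and 11 of the 22 also belong to another list.

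Of 37 measured PPARα targets 11 fell and none rose (29.7% called, beside 13.4% of all genes), with a median of −0.40. The falls numbered 3 without the D number block, 7 without the D7 control array, 7 without the D8 nifedipine array, 5 without the D8 pair and 0 with the spread taken over all 72 arrays. Cpt1a, the gate of fatty acid entry into mitochondria, read 152, 255 and 207 in controls and 116, 92.7 and 73.9 with nifedipine, and fell by 1.11 ± 0.16 (limma adjusted p = 2.44e-05). Aldh3a2 and Acsl1, which oxidise fatty aldehydes and activate fatty acids, fell by 0.46 and 0.62. Ehhadh, a peroxisomal enzyme, went from 161 to 217 to 50.9 to 100, with adjusted p values of 0.000183 with the block and 0.0635 without it.

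Piperonyl butoxide at 13.4 µM and 2-nitrofluorene at 78 µM were tested against the same 3 control arrays at the same time, so their changes share those arrays with the nifedipine changes. The treated arrays were therefore set against each other directly, at doses that differ. Between nifedipine and piperonyl butoxide 898 genes (8.82%) differed, 347 higher with nifedipine (3.41%) and 551 lower (5.41%). Between nifedipine and 2-nitrofluorene 1770 genes (17.4%) differed, 847 higher with nifedipine (8.32%) and 923 lower (9.07%). In probe sets the counts were 1325 (7.34%) and 2819 (15.6%), and 377 and 1252 without the D number block. Without the D8 pair they were 681 and 1495, without the D8 nifedipine array 814 and 1801, and the first was 839 without the D7 pair.

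A wide difference lay in the PPARα targets: 34 of 37 were lower with nifedipine than with piperonyl butoxide and 35 of 37 lower than with 2-nitrofluorene. Cyp4a1, the fatty acid ω-hydroxylase, had group means of 6.44 (log2 signal) in controls and 5.25 with nifedipine, beside 11.37 with piperonyl butoxide and 12.02 with 2-nitrofluorene. The direct differences were −6.12 ± 0.39 and −6.77 ± 0.39 (limma adjusted p = 6.14e-12 and 3.1e-13). Acot1, an acyl-CoA thioesterase, was at or near the signal floor in controls (1.78) and with nifedipine (1.70), and stood at 6.76 and 10.63 with the other compounds. Fabp1, the liver fatty acid binding protein, stood at 8.80, 7.71, 11.32 and 11.73 in the same order.

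**Figure D3:**
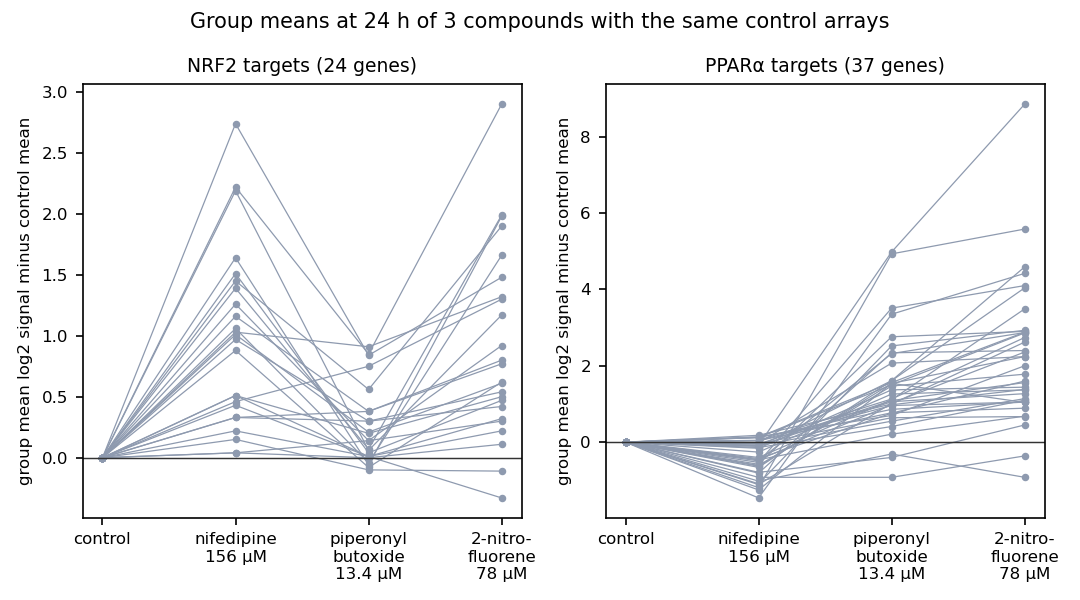
Group mean minus control mean (log2) at 24 h for each measured NRF2 target (left) and PPARα target (right), with 1 line per gene across control, nifedipine at 156 µM, piperonyl butoxide at 13.4 µM and 2-nitrofluorene at 78 µM. All compounds share the 3 control arrays. With nifedipine 29 of the 37 PPARα targets lie below their control mean (11 called lower) and 8 above it, by at most 0.18, and with the other compounds most lie above it. Cyp4a1 reached a mean of 11.37 and 12.02 against 5.25 with nifedipine.

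The NRF2 targets showed another order. Of 24, 14 were higher with nifedipine than with piperonyl butoxide and none lower, while against 2-nitrofluorene 6 were higher and 5 lower. Srxn1 was 2.13 ± 0.21 above piperonyl butoxide and 1.02 ± 0.21 above 2-nitrofluorene (limma adjusted p = 5.45e-08 and 0.00115), and Gclc was 1.47 ± 0.12 and 1.03 ± 0.12 above them. Gstp1 was 1.32 above piperonyl butoxide but lower than with 2-nitrofluorene, by −0.60 ± 0.19 (limma adjusted p = 0.0288). Akr7a3 was 1.71 above piperonyl butoxide, and its difference from 2-nitrofluorene was −0.34 ± 0.16 with an adjusted p of 0.163.

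Cyp1a1 was higher with nifedipine than with piperonyl butoxide by 1.43 ± 0.32 (limma adjusted p = 0.00431). Its group mean of 11.43 with nifedipine against 10.61 with 2-nitrofluorene gave a difference of 0.82 ± 0.32 with an adjusted p of 0.0861. Cyp7a1 was lower with nifedipine than with piperonyl butoxide by −2.50 ± 0.49 (limma adjusted p = 0.00124), and against 2-nitrofluorene the difference was −1.28 ± 0.49 (0.0797). Of the 499 genes that rose with nifedipine 198 stood above their level with piperonyl butoxide and 189 above that with 2-nitrofluorene. Of the 866 that fell, 308 and 303 stood below. Both sets were chosen on the same nifedipine arrays, which by itself favours these directions. Over all genes tested, 3.41% and 8.32% were higher with nifedipine, and 5.41% and 9.07% lower.

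Calcium channel, pump and store genes gave 1 fall and no rise among 26 measured members (3.85% called, below the 13.4% of all genes). Their median was −0.18, and 4 fell without the D9 nifedipine array. A further 19 members of that list were dim in every group. Among these were Cacna1c, Cacna1d and Cacna1s, which encode pore subunits of the L-type channels that nifedipine blocks, so no change can be given for them. The called gene was Slc8a1, the sodium-calcium exchanger, which went from 17.4 to 24.2 to 8.37 to 11.9, close to the median signal. Its adjusted p was 0.0447 with the block and 0.288 without it, and it was lost in 7 of the runs that left out arrays. Rcan1, a reporter of calcineurin activity, read 3070, 2020 and 2210 in controls and 2120, 1870 and 1940 with nifedipine, an overlap, with an adjusted p of 0.165.

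Of 26 calmodulin, calcineurin and calcium sensor genes 6 fell (23.1%, beside 8.51% of all genes), and 1 of them without the D number block. Rgn, regucalcin, a calcium-binding enzyme abundant in liver, had the smallest adjusted p of the 6 and was the one that also passed without the block. It read 145, 153 and 135 in controls and 52.7, 65.2 and 76.8 with nifedipine, and fell by 1.17 ± 0.15 (limma adjusted p = 5.86e-06). The falls numbered 2 without the D7 control array, without the D7 nifedipine array or without the D7 pair, and 3 without the D9 control array or the D9 pair. Immediate early genes gave 2 rises of 23 (8.7% called, below the 13.4% of all genes), Ier3 by 1.24 and Myc by 0.52. Their median was 0.0045.

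Of 36 genes of ER stress and the ATF4 response 8 rose and 1 fell (25% called, beside 13.4% of all genes). Their median was 0.06, and 4 rose without the D number block. Psat1, of serine synthesis, read 319, 408 and 276 in controls and 1160, 1220 and 764 with nifedipine, and rose by 1.64 ± 0.30 (limma adjusted p = 0.000493). Shmt2, the mitochondrial serine hydroxymethyltransferase, rose by 0.76 (4.22e-05). Ddit3 (CHOP), the factor of prolonged ER stress, had a change of −0.34 with an adjusted p of 0.11, and Asns, a sentinel ATF4 target, 0.14 with 0.69. The rises numbered 5 without the D7 control array, the D9 control array or any of the 3 pairs, and 4 without the D8 nifedipine array.

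The cholesterol and cell cycle lists held few calls at 24 h, at 10% and 3.57% of measured members beside 13.4% of all genes. Cholesterol synthesis genes gave 1 rise and 1 fall of 20, with a median of 0.05 (and 7 rises without the D9 pair), and cell cycle genes 1 rise of 28, with a median of −0.07. The p53 list gave 4 rises and 2 falls of 23 (26.1% called), with Plk2 up by 0.85 and Sesn1 down by 0.75. The rises numbered 2 without the block, 1 without the D8 nifedipine array, and 2 without the D8 control array, the D7 nifedipine array or the D7 or D8 pair. Lipid droplet genes gave 3 rises and 2 falls of 16 (31.2% called), with Hilpda up by 0.97 and Cidec and Cideb down by 0.69 and 0.88.

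Among interferon-induced genes 5 of 25 fell (20%, beside 8.51% of all genes) and none rose, with a median of −0.28. Mx2, an antiviral GTPase, read 92.1, 144 and 153 in controls and 18.9, 46.5 and 43.9 with nifedipine, and fell by 1.90 ± 0.37 (limma adjusted p = 0.00077). Igtp fell by 0.55, from 181 to 269 to 138 to 183, with a slight overlap. Mx2 and Igtp were the members that passed without the D number block. Of the list, 2 passed without the D8 control array, the D7 nifedipine array, or the D7 or D8 pair, and 3 without the D7 control array or the D9 pair. The clock list gave 2 rises and 2 falls of 17 (23.5% called, beside 13.4% of all genes), with a median of 0.1. Without the block no rise and 1 fall passed. This was Per1, which went from 78.4 to 108 to 40.1 to 50.3, a change of −1.05 ± 0.16 (limma adjusted p = 3.85e-05).

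Acute phase and complement genes gave 7 falls and 1 rise of 29 (27.6% called, beside 13.4% of all genes), with a median of −0.23. None of them was called without the D number block, and 3 or 4 falls were left without any of the 3 pairs. Of 32 cytoskeleton genes 6 fell and 1 rose (21.9% called), again none without the block. Tagln, transgelin of smooth muscle-like cells, read 322, 52.4 and 83.4 in controls and 39.5, 8.14 and 37.4 with nifedipine, with an adjusted p of 2.47e-05 and 0.194 without the block. Acta2, an actin of activated stellate cells, read 403, 105 and 126 and then 93.5, 67.6 and 127, so that its call (0.0102) rested on the D7 control array and was absent without it or without the D7 nifedipine array. On that control array the summed stellate cell markers were also the highest, at 2870 beside 1870 and 2140. The part of stellate cells in the cytoskeletal falls was not tested.

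Macrophage markers gave 2 falls and 1 rise of 17 (17.6% called, near the 13.4% of all genes). None was called without the D number block, and 1 fall was left without the D8 nifedipine array or the D8 pair. Of these markers 16 of 17 had a negative change, with a median of −0.35. Of stellate cell markers 2 fell and 1 rose of 13 (23.1% called), with a median of −0.44. The falls numbered 0 without the D7 nifedipine array or the D7 pair and 1 without the D7 control array or the D8 nifedipine array. The summed signals of these markers in the 2 groups overlapped, as given above. The acute phase and interferon-induced genes moved in the same direction as the macrophage markers, and the part of macrophages in those falls was not tested. All 11 hepatocyte markers had a negative change, of −0.05 to −0.72, with a median of −0.19, and 2 of them were called, 1 without the D7 pair and 0 without the block.

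The 72 h arrays show how far the 24 h response lasted. They have their own 3 controls. At 72 h 2886 genes (28.4%) were called, 1175 higher (11.5%) and 1711 lower (16.8%), in 4632 probe sets (25.7%). The latter were 2358 without the D number block and 2469 without the D7 pair, 2773 without the D8 pair and 3086 without the D7 control array of 72 h. Of the 499 genes that rose at 24 h 266 (53.3%) were again called higher and 14 lower, and of the 866 that fell 392 (45.3%) were again called lower and 36 higher.

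The effect differed between the times for 925 genes (9.09%), in a test of the difference itself, with 495 effects higher at 72 h (4.86%) and 430 lower (4.22%), and for 1408 probe sets (7.8%). The latter were 152 without the D number block, 394 without the D8 pair, 431 without the D7 pair, 663 and 882 without the D7 or D8 control array of 72 h and 889 without the D7 nifedipine array of 72 h. Among the NRF2 targets 20 of 24 rose at 72 h, and the effect was larger than at 24 h for 9 and smaller for 1. With no D number block 17 rose and no difference between times was called in this list. The 9 larger effects were 2 without the D7 pair, 3 without the D8 pair, 4 without the D7 control or D7 nifedipine array of 72 h, and 5 without the D8 control array of 72 h or the D9 control or D9 nifedipine array of 24 h. Gstp1 read 355, 699 and 276 in the 72 h controls and 4830, 4800 and 3850 with nifedipine, and its effect was larger than at 24 h by 2.06 ± 0.27 (limma adjusted p = 3.78e-05, and 0.0924 without the block). That of Nqo1 was larger by 1.44 ± 0.27 (0.0014, and 0.198 without the block). Without the filter on dim probe sets the 9 larger effects of the list were 4. Me1 was the exception, with a change of 0.19 at 72 h and a difference of −0.84 ± 0.14 (0.000392, and 0.145 without the block).

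Cyp1a1 read 103, 122 and 148 in the 72 h controls and 5270, 3380 and 3670 with nifedipine, a rise of 5.03 ± 0.32 (limma adjusted p = 6.56e-12) that exceeded the rise at 24 h by 1.58 ± 0.45 (0.0298). Hmox1 read 1130 to 1250 with nifedipine at 72 h against 78.5 to 121 in controls, and its effect was larger than at 24 h by 0.84 ± 0.26 (0.0468). The mean log2 signal of Hmox1 was lower at 72 h than at 24 h in both groups, at 6.62 against 8.02 in controls and 10.21 against 10.76 with nifedipine. The differences between times for Cyp1a1 and Hmox1 were not called without the D number block (0.313 and 0.551). Cyp2c12 remained low, at 38 to 130 against 523 to 1100, and its effects at the 2 times differed by −0.43 ± 0.45 (adjusted p = 0.593). Cyp7a1 had a change of −1.21 at 72 h with an adjusted p of 0.0709, when its controls stood at 21.4 to 65.8.

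**Figure D4:**
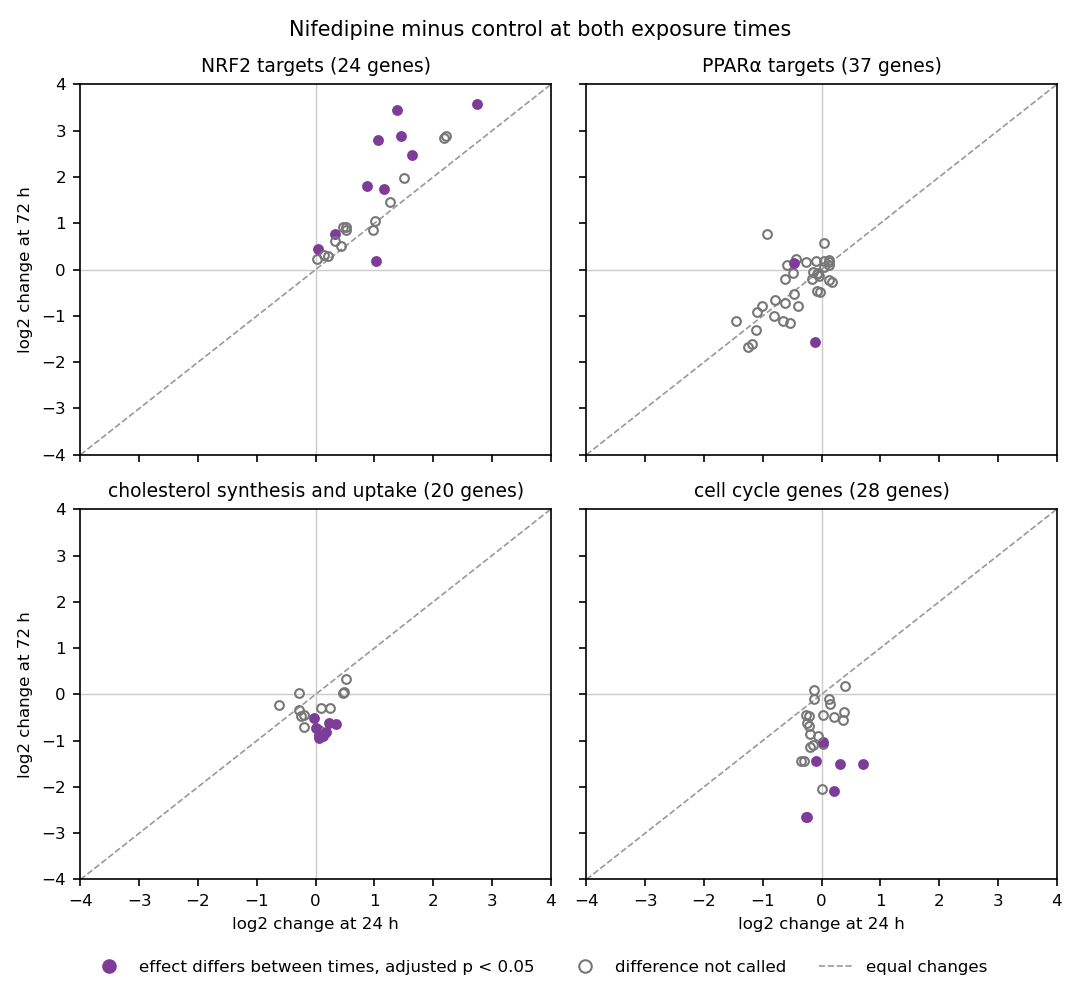
Change at 24 h (horizontal axis) against change at 72 h (vertical axis), both log2 of nifedipine minus the control of the same time, for 24 NRF2 targets, 37 PPARα targets, 20 cholesterol genes and 28 cell cycle genes. Purple points are genes whose effect differed between the times, and the diagonal marks equal change. Most cell cycle and cholesterol genes lie near 0 on the horizontal axis and below 0 on the vertical one, with 72 h medians of −0.87 and −0.49.

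Cholesterol synthesis and cell cycle genes, with few calls at 24 h, had more at 72 h. Of 20 cholesterol genes 13 fell at 72 h (beside 16.8% of all genes), with a median of −0.49, and the effect was lower than at 24 h for 8. These counts were 8 and 0 without the D number block, 12 and 1 without the D7 pair and 13 and 4 without the D8 pair. Idi1, of the isoprenoid path, read 503, 435 and 507 against 706, 536 and 385 with nifedipine at 24 h, an overlap, and 697, 797 and 971 against 351, 444 and 542 at 72 h. Of 28 cell cycle genes 16 fell at 72 h (beside 16.8% of all genes), with a median of −0.87, and the effect was lower than at 24 h for 7. These 7 depended on the floor, being 5 with it at the 10th percentile and 11 at the 40th. They were 4 with quantile normalization and 5 without the filter on dim probe sets. The block left out, 11 fell and no effect was lower, and without the D7, D8 or D9 pair the counts were 10 and 5, 9 and 3, and 13 and 3. Leaving out the D7 control array of 72 h gave 10 and 3, and the lower effects were 3 or 4 without the D8 or D9 control array of 24 h, the D9 nifedipine array of 24 h or the D8 nifedipine array of 72 h. Mki67, the proliferation marker, was close to the floor of 3.117 in both groups at 24 h, at 0.683 to 5.97 in controls and 3.65 to 5.93 with nifedipine. At 72 h its controls had 18.7 to 30.9 and the nifedipine arrays 2.34 to 8.79. A gene so close to the floor in the 24 h controls had little room to fall at that time.

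Macrophage markers fell at the same time. Of 17 measured markers 15 fell at 72 h, with a median of −1.54, and the effect was lower than at 24 h for 9. The counts were 9 and 0 without the D number block, 13 and 4 without the D9 pair and 15 and 5 without the D7 control array of 72 h. The summed signal of these markers was 1220, 2780 and 2280 on the D7, D8 and D9 control arrays of 72 h and 613, 1450 and 1130 on the nifedipine arrays of the same D numbers. It was lower with nifedipine in all 3 pairs, although the ranges of the groups overlapped. Cd163, a scavenger receptor of macrophages, read 35.7, 53 and 36 in controls and 11.5, 22.5 and 1.37 with nifedipine, a change of −2.13 ± 0.31 (limma adjusted p = 9.63e-06). Of stellate cell markers 5 fell and 1 rose of 13, with a median of −0.01. Of endothelial markers 3 fell and 1 rose of 9, with a median of −0.53. Over all genes 16.8% fell and 11.5% rose at 72 h. The summed signal of the 11 hepatocyte markers was 31000 to 38400 in controls and 31600 to 46400 with nifedipine at 72 h. The part of macrophages and other cells in the falls of cell cycle and cholesterol genes was not tested.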

How the data were processed

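Each sample had its own Affymetrix rat array. Per the submitters' processing notes the deposited intensity values were made with MAS5, version not given in the sources used here. They are linear and were used without further normalization. Signals under 3.117 (20th percentile over all arrays) were set to 3.117 before log2 was taken, so changes near this floor are understated. Probe sets with at least 1 of 24 group means at the median of 19.74 were kept (18048, 58.1%). Of these 14072 have 1 symbol, 334 several and 3642 none, and the brightest probe set stood for each of 10178 genes.

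The model was fitted in limma 3.58.1 (R 4.3.3) to the 36 arrays of D7 to D9 (12 groups, 20 residual degrees of freedom), with D number within time as a block and Benjamini-Hochberg adjustment over all 18048. The titles give the D numbers. Deviations of same-numbered arrays correlated at 0.27, 0.34 and 0.27 at 24 h, which is why the block was kept. On simulated data for this comparison (18048 probe sets) 44.1% of changes of 0.58 were recovered, 84.8% of 1 and 98.5% of 2, with 3 false calls of 154. The simulation planted 68, 66 and 66 such changes, all in probe sets with a mean above the median signal, with independent normal noise. The fit of the data gave 2090 calls and also covered dimmer probe sets, so these rates need not carry over to it. Precision is limited by having 3 arrays a group.

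Named genes were the 15 largest rises and falls, up to 4 called members of each list and fixed genes, narrowed and added to after their values were seen. Gene lists and comparisons were chosen with earlier results of these data known. Some genes belong to several lists, 9 of the 24 measured NRF2 targets among them, so the list counts are not independent. Promoters came from RefSeq, GRCr8.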

Additional observations from a re-analysis of the deposited data

Results flagged for a closer look

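The effect of nifedipine differed between 72 h and 24 h for 1408 probe sets. The genes below had the largest such differences under the naming rule, in log2 of the effect at 72 h minus the effect at 24 h. Both times have their own treated and control arrays, and all adjusted p values are limma's.

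Ndufa4l2, a mitochondrial protein known to be induced by low oxygen, stood out by 2.66 ± 0.30 (adjusted p = 4.86e-06), with a change of 0.11 at 24 h and 2.77 at 72 h. Epn1, an endocytic adaptor, turned from −1.60 to 1.64, a difference of 3.23 ± 0.71 (0.00525) that was not called without the D7 or without the D8 pair. C4h2orf81 differed by 2.86 (0.0431) and Pspn, a neurotrophic factor, by 2.69 (0.0397), and neither was called without the D number block. Xpnpep2, an aminopeptidase, had a change of −2.05 at 24 h and 0.59 at 72 h, a difference of 2.65 (0.0153), lost without the D7 or D8 pair or the D8 nifedipine array of 72 h.

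In the other direction C9, the last component of the complement pore, differed by −2.45 ± 0.16 (adjusted p = 6.37e-11), with a change of −0.19 at 24 h and −2.64 at 72 h. Bhlhe41, a clock repressor, differed by −2.79 (0.00261), Qpct, a glutaminyl cyclase, by −2.75 (0.00184), Kif23, a kinesin of cell division, by −2.68 (0.000974) and Slc24a3, a sodium-calcium exchanger, by −2.64 (0.00112). Of these, Bhlhe41 and Kif23 were not called without the D number block. Bhlhe41 was also not called without the D7 pair, and Qpct without the D8 pair.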

How the results depend on the processing

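Of 123 named genes called at 24 h, 80 kept their call in every run that left out an array or a pair. Under every alternative 20 kept it. None changed direction under any alternative, but this cannot show that direction was stable, because the genes were chosen as called on the same arrays. Fits without the block or over all 72 arrays also leave the difference of group means as it was, so they could not reverse a direction. The counts depended on how the spread was estimated. Calls at 24 h, at 72 h, for the difference between times, against piperonyl butoxide, against 2-nitrofluorene, between the 2 control groups and over all list members were as follows. The main values were 2090, 4632, 1408, 1325, 2819, 39 and 168. Without the replicate block, with arrays compared as unpaired by D number, they were 623, 2358, 152, 377, 1252, 0 and 63. Over all 72 arrays without the block they were 83, 574, 21, 68, 373, 0 and 14. Over all 72 arrays with the block, an alternative chosen after seeing the data, they were 820, 2726, 395, 436, 1430, 0 and 70. The cause was not tested. The counts of 0 between the controls are limma's, beside 1039, 411 and 1006 at an unadjusted p under 0.05 in the same 3 fits. That control count was 16 without the filter on dim probe sets, 16 after quantile normalization and 6 over the 18 arrays of the same time. In that last setting the difference between times could not be fitted.

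Leaving out arrays or pairs gave 1114 to 2227 calls at 24 h, 2469 to 3979 at 72 h, 394 to 1433 for the difference between times, 681 to 1296 against piperonyl butoxide, 1495 to 2471 against 2-nitrofluorene, 0 to 29 between controls and 114 to 174 over the lists. Other floors, no filter, quantile normalization and the NNK controls, alone or added, kept the 24 h count within 1.5 times. Quantile normalization moved the median change of all probe sets from −0.016 to 0.006. With 3 arrays a group, changes of 0.58 were often missed in simulation, and smaller ones were not simulated. Probe sets near the floor carry no order.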

Other observations

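Some of the largest changes at 24 h fell outside the gene lists. Defb1, an antimicrobial peptide of epithelia, read 47.1, 84.5 and 58.2 in controls and 185, 436 and 568 with nifedipine, a rise of 2.54 ± 0.23 (limma adjusted p = 3.99e-08). Ddit4l, an inhibitor of mTOR signalling related to Ddit4, read 2.54, 19.9 and 3.78 and then 55.2, 81 and 36.9, and rose by 3.15 ± 0.44 (1.56e-05), from a level at which the D7 control array was under the floor. Slc17a3, an organic anion transporter, was nearly the same on the 3 nifedipine arrays, at 660, 651 and 652, against 165, 201 and 227 in controls, a rise of 1.74 ± 0.21 (1.47e-06) that reached 3.12 at 72 h. Maff, a small partner of NRF2 and other basic leucine zipper factors, went from 26.7 to 34.5 to 122 to 158 and was also above its level with piperonyl butoxide by 2.26 and with 2-nitrofluorene by 1.65.

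Among the falls, S1pr1, a receptor for sphingosine 1-phosphate, read 261, 298 and 276 in controls and 52.3, 66.1 and 63.3 with nifedipine, a change of −2.20 ± 0.24 (limma adjusted p = 3.95e-07). Rprm, a cell cycle inhibitor, read 49.7, 22.1 and 106 and then 4.28, 5.04 and 15, a change of −2.83 ± 0.31 (5.48e-07). Sult6b2, a sulfotransferase, rose from 78.3 to 112 to 185 to 346 and was above its level with piperonyl butoxide by 2.38 and with 2-nitrofluorene by 3.15, but its 2 control groups of the same D numbers also differed, by −1.11 (0.00997).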
